A study of Arabidopsis thaliana with 10 samples.

Results

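The late anthocyanin enzymes examined here are DFR (AT5G42800), UGT78D2 (AT5G17050), UF3GT (AT5G54060), AT4G14090 and AT5MAT (AT3G29590) of Arabidopsis thaliana. Each was read from the probe set that names it alone in the array's probe-to-gene table, which gave 5 probe sets for 5 genes, of 13356 genes with a probe set of their own name. The 10 arrays measured pooled leaf tissue of accession Columbia on days 1, 2, 7, 8 and 12, and no line was sampled more than once on a day. The 5 arrays of 35S:PAP1 plants carry PAP1, a MYB transcription factor, under the constitutive viral 35S promoter. The 5 arrays of plants with an empty vector have Hex in their labels, taken here for that control because no line other than these is named in the series. The number of independent transformants behind each line is not given in the sources used here. Per the series text, plants grew first in bright light (440 µmol m-2 s-1) at 22 °C, then for 6 days in dim light (150 µmol m-2 s-1) at 30 °C by day, during which the red leaves turned largely green, and then in bright light (440 µmol m-2 s-1) at 15 °C to bring the red back. From this text day 1 was read as mild bright, days 2 and 7 as warm dim and days 8 and 12 as cool bright. Temperature and light both changed at each switch of regime, and regime, day and plant age coincide, so their parts cannot be told apart.

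Anthocyanins are red to purple flavonoid pigments stored in the vacuole. DFR reduces dihydroflavonols to leucoanthocyanidins and so opens the branch that leads to anthocyanins and tannins. The coloured anthocyanidin is then stabilised by decoration: UGT78D2 adds glucose at the 3-O position (and acts on flavonols too), UF3GT adds xylose to that glucose, AT4G14090 is the anthocyanin 5-O-glucosyltransferase, and AT5MAT attaches malonate to the 5-O-glucose. In leaves these genes are known targets of MYB, bHLH and WD40 protein complexes, in which PAP1 is a MYB partner. Bright light and cold are well-known inducers of the pathway.

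Values are log2 expression per probe set as deposited, so 1 unit is a doubling. Levels of different probe sets are not compared, since probes differ in brightness. With no detection call, values at or under 3.9, the highest reading of the seed coat gene BAN and the root hair gene EXPA7, were taken as possibly background, and changes that touch them are lower bounds. Of the 50 values of the 5 genes, 4 lay at or under this limit, all in the empty vector: DFR on day 7, and AT5MAT on days 1, 2 and 7. The leaf markers RCA, LHCB4.1 and LHCB4.2 read 9.7 to 13.8 on the 35S:PAP1 arrays and 9.6 to 13.7 on the empty vector arrays, and the root markers PYK10 and EXPA7 read 3.5 to 4.9 on the 35S:PAP1 arrays and 3.6 to 5.1 on the empty vector arrays. In a bulk sample, fewer cells that express a gene and less RNA per cell cannot be told apart.

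The 35S:PAP1 day 2 array stood apart in RNA measures. Its actin 5′ minus 3′ difference was -2.5, against -1.5 to -1.2 on the other 9 arrays, its GAPDH 5′ minus 3′ difference was -1.4, against -0.4 to 0.3, and its signal for 25S ribosomal RNA was 9.7, where the others had 4.7 to 6.7. On day 7 the poly-A spike-in controls read 3.85 on the 35S:PAP1 array and 3.8 on the empty vector array, against 6.9 to 7.5 on the other days, while the hybridisation controls lay between 8.7 and 9.15 on all 10 arrays.

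All 5 enzyme genes read higher in 35S:PAP1 than in the empty vector on every day. DFR read 12.4, 10.7, 12.4, 12.6 and 11.6 in 35S:PAP1 on days 1, 2, 7, 8 and 12, against 4.6, 4.4, 3.8, 8.0 and 7.1 in the empty vector. The 35S:PAP1 values kept within 1.9 units of each other, and the empty vector values formed a low set on the first 3 days and a higher set on the last 2.

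UGT78D2 read 10.7, 9.2, 10.8, 11.4 and 9.9 in 35S:PAP1, against 7.1, 6.2, 6.1, 10 and 7.3 in the empty vector, in the same order of days. Its ranges overlapped: the empty vector on day 8 (10) stood above 35S:PAP1 on days 2 and 12. It was the only one of the 5 with such an overlap.

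UF3GT read 11.8, 10.7, 11.8, 11.8 and 11.1 in 35S:PAP1, against 5.3, 5.0, 4.7, 8.1 and 6.6 in the empty vector. It was the steadiest of the 5 in 35S:PAP1, with a range over days of 1.1, while its empty vector range was 3.4. The lowest 35S:PAP1 array still lay 2.6 above the highest empty vector array.

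AT4G14090 read 12.1, 9.7, 11.5, 11.8 and 11.5 in 35S:PAP1, against 5.3, 5.0, 4.7, 8.1 and 7.2 in the empty vector. Its 35S:PAP1 arrays lay within 0.6 of each other except the low one of day 2. The closest arrays of the lines, 35S:PAP1 on day 2 and the empty vector on day 8, were 1.6 apart.

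AT5MAT read 9.5, 7.6, 9.6, 10.2 and 8.8 in 35S:PAP1, against 3.8, 3.5, 3.5, 7.0 and 4.8 in the empty vector. The empty vector signal was at or under the limit for background on the first 3 days, stood well above it on day 8, and was closer to it on day 12. The lines were separated by 0.6 at their closest, between the 35S:PAP1 array of day 2 and the empty vector array of day 8.

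**Figure D1:**
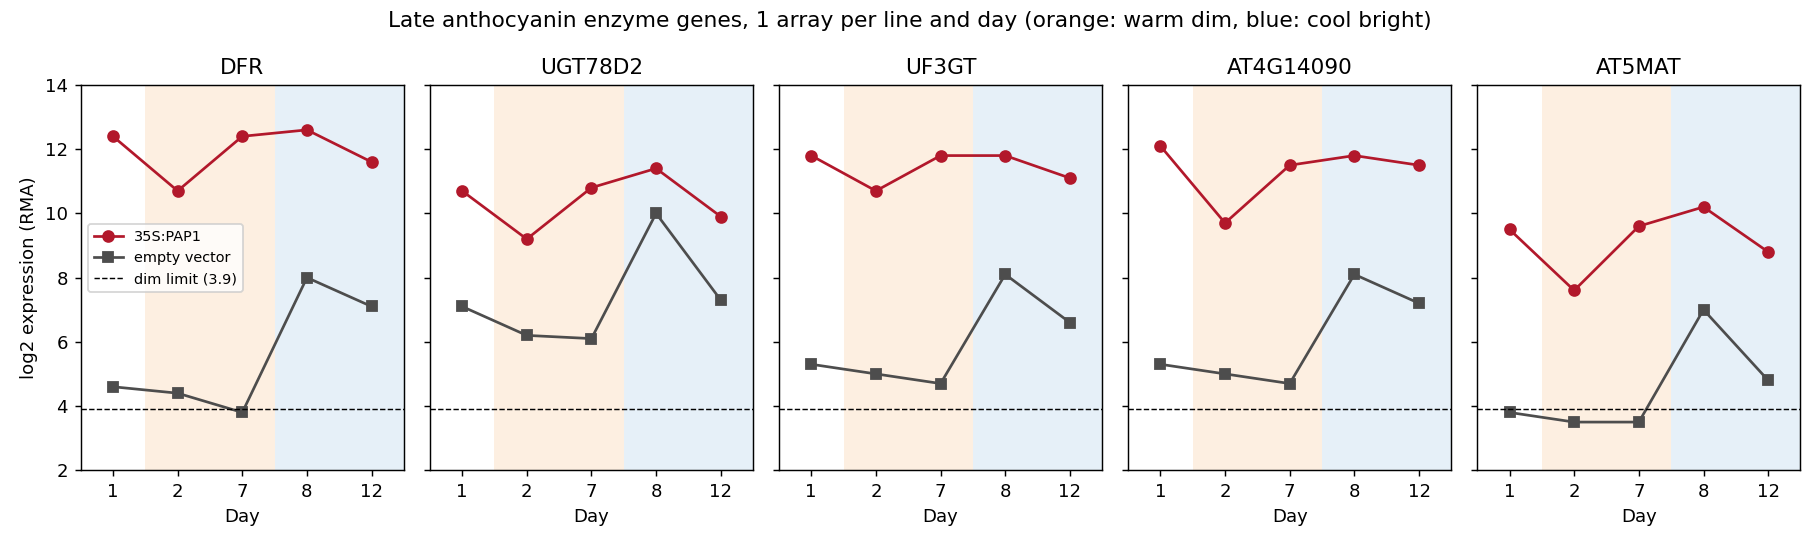
log2 expression of the 5 genes (y axis, RMA log2 units) by day (x axis, evenly spaced) in 35S:PAP1 (red circles) and the empty vector (grey squares), 1 array per point, with the limit for background of 3.9 dashed. Orange marks the days read as warm dim and blue those read as cool bright. The red points are lowest on day 2 for all 5 genes and read lower on day 12 than on day 8. The grey points are highest on day 8, at 10 for UGT78D2 and between 7.0 and 8.1 for the other 4 genes.

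The mean difference between the lines asks whether these transcripts differed by genotype over all 5 days. It was tested with limma across all 22746 probe sets with day as a block, with p-values adjusted over all of them by Benjamini-Hochberg. Of the 5 genes 4 were called higher in 35S:PAP1 at an adjusted p under 0.05, where 0.0659% of all probe sets were. DFR differed by at least 6.36 ± 0.60 on the log2 scale (SE, adjusted p = 0.0146), UF3GT by 5.5 ± 0.46 (0.0111), AT4G14090 by 5.26 ± 0.47 (0.0125) and AT5MAT by at least 4.62 ± 0.40 (0.0124). UGT78D2 differed by 3.06 ± 0.40 log2 units, an 8.34-fold difference, and was not called (adjusted p = 0.0653). The error of this fit holds any change of the line difference between days. For 4 of the 5, all but UGT78D2, every 35S:PAP1 array lay above every empty vector array, as did 0.215% of all probe sets.

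The difference was positive on 5 of 5 days for each gene. An exact two-sided sign-flip test over the 5 days gave p = 0.0625 for each, the smallest value that 5 pairs allow. Of the other genes read below, CHIL and AT5G17040 gave the same, with mean differences of 2.84 and 0.34. The remaining pathway genes were positive on 1 to 4 days. The share over all probe sets was not counted. The calls changed with the days and settings of the fit. With both arrays of 1 day left out, 3 of the 5 genes and 13 of all probe sets were called without day 8. Without day 1, day 2, day 7 or day 12, 0 of the 5 were called. Over all probe sets, 0, 3, 3 and 0 were called in these fits, in the same order. The DFR difference stayed between 5.8 and at least 6.83. Leaving out days 2 and 7 of the 35S:PAP1 line, 0 of the 5 and 0 of all probe sets were called. The adjusted p was 0.699 for the 4 that had been called. The differences were then 5.63 for DFR, 4.9 for UF3GT, 4.93 for AT4G14090 and at least 4.3 for AT5MAT. UGT78D2 was called with each array centred on its median (adjusted p = 0.0432), with dim probe sets filtered out (0.0402) and with an intensity trend (0.0219). Without day as a block, AT4G14090 (adjusted p = 0.0505) and AT5MAT (0.126) were no longer called.

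**Figure D2:**
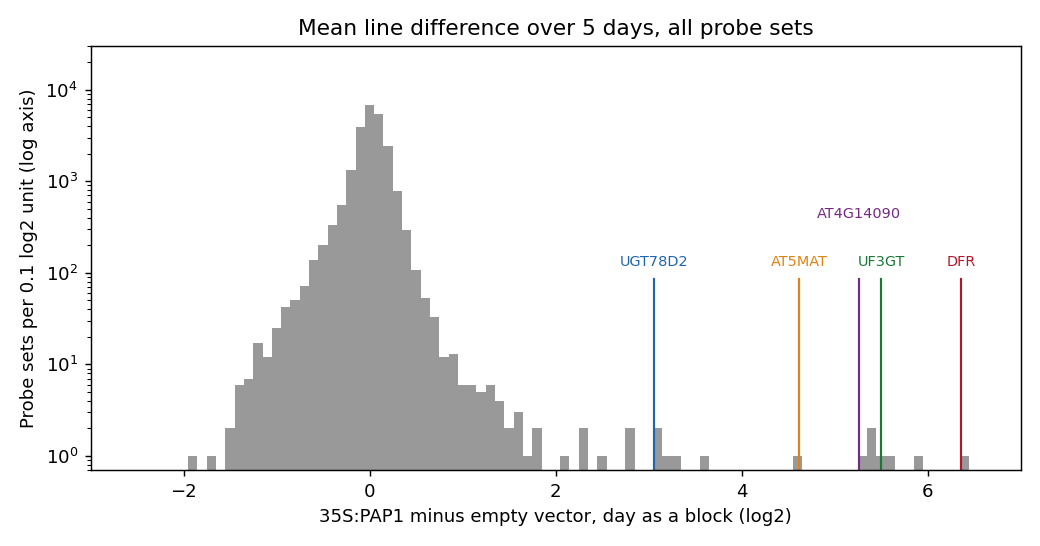
Mean 35S:PAP1 minus empty vector difference over 5 days (x axis, log2 units) for all 22746 probe sets, counted in bins of 0.1 on a log axis (y axis), with the 5 enzyme genes marked. Nearly all probe sets lie close to 0, UGT78D2 stands at 3.06 and the other 4 genes stand between 4.62 and 6.36. Probe sets that name no single gene also lie in the range of these 4, at 5.86, 5.42 and 5.38.

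The line difference varied with the day. In order of days, it was 7.8, 6.3, at least 8.6, 4.6 and 4.5 for DFR, and 3.6, 3.0, 4.7, 1.4 and 2.6 for UGT78D2. For UF3GT it was 6.5, 5.7, 7.1, 3.7 and 4.5, and for AT4G14090 6.8, 4.7, 6.8, 3.7 and 4.3. AT5MAT gave at least 5.7, 4.1 and 6.1 on the first 3 days, then 3.2 and 4.0. All 5 differences were smaller on both cool bright days than on days 1 and 7. As folds, DFR was at least 388-fold higher in 35S:PAP1 on day 7 and 24.3-fold higher on day 8, and UGT78D2 was 26.0-fold higher on day 7 and 2.64-fold higher on day 8. On single days, 0.787%, 0.818%, 2.33%, 0.413% and 0.51% of all probe sets read at least 1 unit higher in 35S:PAP1. Poly-A controls read low on both day 7 arrays (3.85 in 35S:PAP1, 3.8 in the empty vector). The part of this in the day 7 differences was not tested.

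**Figure D3:**
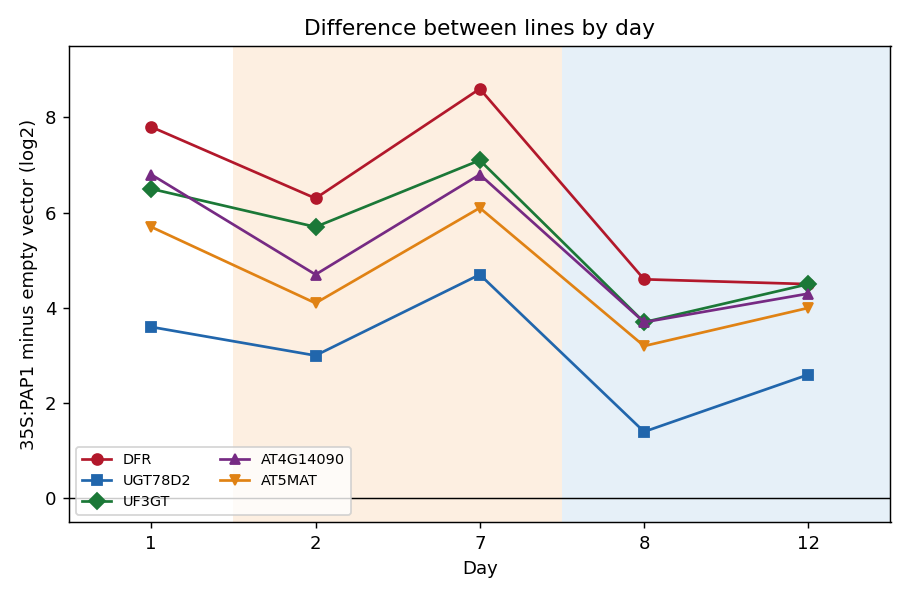
35S:PAP1 minus empty vector difference (y axis, log2 units, 1 array per line) of the 5 genes by day (x axis, evenly spaced), with warm dim days in orange and cool bright days in blue. All 5 genes have their largest difference on day 7 (AT4G14090 equally on day 1, at 6.8), and on day 8 the differences lie between 1.4 and 4.6.

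UGT78D2 had the smallest line difference of the 5 on every day. Relative to the mean difference of the other 4, it lay at -3.1 to -1.725 log2 units on the single days, with a mean of -2.375 ± 0.50 (SD over 5 days). As it was set apart for being the smallest, this is a description with no test. Its empty vector readings of days 1, 2 and 7 (6.1 to 7.1) were above the limit for background. Those of DFR on day 7 and AT5MAT on all 3 of these days were not, so their differences can be understated. DFR had the largest difference on days 1, 2, 7 and 8 and shared it with UF3GT on day 12, at 4.5 each.

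The first day of warm dim growth set day 2 against day 1, the start of the treatment under which the red colour was lost. In 35S:PAP1 all 5 genes read lower on day 2 by at least 1 unit, as did 4.49% of all probe sets. AT4G14090 changed by -2.4, AT5MAT by -1.9, DFR by -1.7, UGT78D2 by -1.5 and UF3GT by -1.1. The median of the 5 was -1.7, against 0 for all probe sets, whose 5th and 95th percentiles were -0.9 and 0.9. In the empty vector the changes were -0.9 for UGT78D2, -0.3 for UF3GT and AT4G14090 and -0.2 for DFR. AT5MAT was at or under the limit for background there on both days. The 35S:PAP1 side of this comparison rests on the day 2 array with the actin difference of -2.5, so it has no value without that array, and the part of RNA quality in it was not tested. Over both lines limma called 0 of the 5 genes, with changes of -0.7 to -1.35 and adjusted p of 0.287 to 0.624, where 5.5% of all probe sets were called lower.

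By day 7, at the end of the warm dim period, the 5 transcripts in 35S:PAP1 read close to their day 1 levels. Relative to day 1, day 7 read 0 different for DFR and UF3GT, 0.1 higher for UGT78D2 and AT5MAT, and -0.6 for AT4G14090. None of the 5 was lower by 1 unit, as 3.03% of all probe sets were in this line. In the empty vector the same comparison gave -1.0 for UGT78D2, -0.8 for DFR (its size a lower bound), and -0.6 for UF3GT and AT4G14090. The comparisons of day 7 with day 1 and with day 2 use arrays whose poly-A controls read 3.85 (35S:PAP1) and 3.8 (empty vector). The comparison with day 2 again uses the 35S:PAP1 array whose actin difference was -2.5. The part of either in these comparisons was not tested. From day 2 to day 7, 35S:PAP1 read higher by 2.0 for AT5MAT, 1.8 for AT4G14090, 1.7 for DFR, 1.6 for UGT78D2 and 1.1 for UF3GT, all 5 by at least 1 unit where 3.35% of all probe sets were. In the same interval the empty vector changed by -0.1 for UGT78D2, by -0.3 for UF3GT and AT4G14090, and by -0.6 for DFR (its size a lower bound). AT5MAT was at or under the limit for background there on both days. Over both lines limma called 0 of the 5 from day 2 to day 7 (changes of 0.4 to 1.0, with empty vector values of DFR and AT5MAT at the limit for background, adjusted p of 0.519 to 0.84), where 0.044% of all probe sets were called higher. The series text describes the leaves as largely green by the end of this period. Leaf colour was not measured in the files used here.

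The step from day 7 to day 8, the first day of cool bright growth, was where the empty vector moved most. All 5 genes read at least 1 unit higher there on day 8, as did 9.14% of all probe sets. DFR was higher by at least 4.2, UGT78D2 by 3.9, AT5MAT by at least 3.5, and UF3GT and AT4G14090 by 3.4 each. The median of the 5 was 3.5, against 0 for all probe sets, whose 5th and 95th percentiles were -1.4 and 1.4. In 35S:PAP1 the same step was 0.6 for UGT78D2 and AT5MAT, 0.3 for AT4G14090, 0.2 for DFR and 0 for UF3GT, with none of the 5 reaching 1 unit (4.51% of all probe sets did). Even on this day each gene stayed higher in 35S:PAP1, by 1.4 for UGT78D2 and by 3.2 to 4.6 for the other 4. The step starts from the day 7 arrays, where the poly-A controls read 3.85 (35S:PAP1) and 3.8 (empty vector). On the other days they read 6.9 to 7.5, and the part of this in the step was not tested.

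Over both lines together, UGT78D2 rose by 2.25 ± 0.63 log2 units from day 7 to day 8 (adjusted p = 0.0378, limma), and it was the only one of the 5 called, where 11.3% of all probe sets were called higher. AT5MAT gave at least 2.05 ± 0.64 (adjusted p = 0.0536), DFR at least 2.2 ± 0.95 (0.140), UF3GT 1.7 ± 0.73 (0.135) and AT4G14090 1.85 ± 0.75 (0.119). This fit takes 1 change for both lines, so unequal changes of the lines widen its error. With 1 array left out at a time, the UGT78D2 change ranged from 1.2125 to 3.2875, and the number of the 5 called changed. Leaving out an array of day 7 or day 8 leaves 1 array on that day.

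From day 8 to day 12, within cool bright growth, the levels read lower in both lines. The change in 35S:PAP1 was -1.5 for UGT78D2, -1.4 for AT5MAT, -1.0 for DFR, -0.7 for UF3GT and -0.3 for AT4G14090. In the empty vector it was -2.7 for UGT78D2, -2.2 for AT5MAT, -1.5 for UF3GT and -0.9 for DFR and AT4G14090. In each line 3 of the 5 genes read at least 1 unit lower, where 4.46% of all probe sets did in 35S:PAP1, against 6.51% in the empty vector. UGT78D2 and AT5MAT changed most in both lines. None of the 5 was called over both lines (UGT78D2 -2.1 ± 0.63, adjusted p = 0.0542, AT5MAT -1.8 ± 0.64, adjusted p = 0.0916), where 9.44% of all probe sets were called lower. With 1 array left out at a time, the UGT78D2 change ranged from -3.1375 to -1.0625, and it was called in some of these fits.

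Day 12 and day 1 share their light level but not their temperature. In 35S:PAP1 all 5 genes read lower on day 12, by nearly the same amount: -0.8 for DFR and UGT78D2, -0.7 for UF3GT and AT5MAT and -0.6 for AT4G14090. None reached 1 unit, as 1.64% of all probe sets did. In the empty vector all 5 read higher on day 12, by 2.5 for DFR, 1.9 for AT4G14090, 1.3 for UF3GT, at least 1.0 for AT5MAT and 0.2 for UGT78D2, so 4 of the 5 reached 1 unit, where 4.96% of all probe sets did. These are differences between single arrays and have no replicate check.

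**Figure D4:**
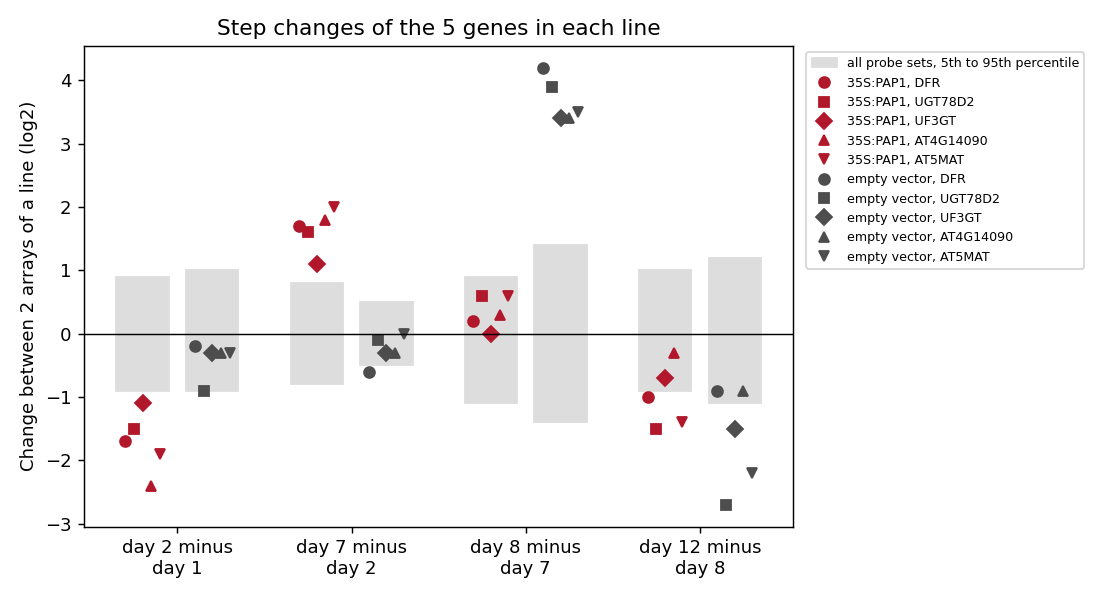
Change between consecutive sampling days (y axis, log2 units, difference of 2 arrays) for the 5 genes in 35S:PAP1 (red, left of each pair) and the empty vector (grey, right), with the 5th to 95th percentile of all probe sets as light boxes. The 35S:PAP1 points lie below the box on day 2 and above it on day 7, and the empty vector points lie above it on day 8, between 3.4 and 4.2.

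Setting regimes against each other lets days stand in for replicates, with 2 arrays per line in warm dim and in cool bright growth and 1 in mild bright growth (limma, 4 residual degrees of freedom). In the empty vector, cool bright minus warm dim was at least 3.45 ± 0.65 for DFR (adjusted p = 0.0908), 2.8 ± 0.60 for AT4G14090 (0.106), 2.5 ± 0.59 for UF3GT (0.124), 2.5 ± 1.00 for UGT78D2 (0.288) and at least 2.4 ± 0.94 for AT5MAT (0.279). None of the 5 was called, and 0.0352% of all probe sets were called higher. Unadjusted, p was under 0.05 for all 5, and for 3823 of all probe sets. In 35S:PAP1 the same contrast was 0.2 to 1.05, with adjusted p of 0.505 to 0.915, and 0 of the 5 were called where 0.0132% of all probe sets were called higher. Without the 35S:PAP1 array of day 2 it became -0.35 for UF3GT, -0.3 for DFR, -0.15 for UGT78D2 and -0.1 for AT5MAT, while AT4G14090 gave 0.15.

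Warm dim minus mild bright in 35S:PAP1, the contrast that spans the loss of red colour, was -1.5 ± 0.73 for AT4G14090, -0.9 ± 1.16 for AT5MAT, -0.85 ± 0.80 for DFR, -0.7 ± 1.22 for UGT78D2 and -0.55 ± 0.72 for UF3GT. limma called 0 of the 5 (adjusted p of 0.785 to 0.973) and 0 of all probe sets, of which 1518 had an unadjusted p under 0.05. Without the 35S:PAP1 array of day 2, the contrast was -0.6 for AT4G14090, 0 for DFR and UF3GT, and 0.1 for UGT78D2 and AT5MAT. In the empty vector the contrast was -0.95 for UGT78D2, -0.5 for DFR (its size a lower bound) and -0.45 for UF3GT and AT4G14090, none called (adjusted p of 0.902 to 0.94). AT5MAT was at or under the limit for background there on all 3 days.

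The difference between lines itself was compared between regimes, using the 5 differences by day (limma, 2 residual degrees of freedom). From warm dim to cool bright the change was -2.9 ± 0.85 for DFR (its size a lower bound), -2.3 ± 0.60 for UF3GT, -1.85 ± 0.77 for UGT78D2, -1.75 ± 0.80 for AT4G14090 and -1.5 ± 0.79 for AT5MAT (its size also a lower bound). All 5 were negative, and 0 of the 5 and 0 of all probe sets were called (adjusted p of 0.643 to 0.675 for the 5). With 1 array left out at a time, these changes ranged from -4.05 to -1.75 for DFR, -3.0 to -1.6 for UF3GT, -2.7 to -1.0 for UGT78D2, -2.8 to -0.7 for AT4G14090 and -2.5 to -0.5 for AT5MAT. Unadjusted, p was under 0.05 for DFR (0.0289) and UF3GT (0.0204), and for 1658 of all 22746 probe sets. From mild bright to warm dim the changes were -1.05 to 0.25 and none was called (adjusted p of 0.788 to 0.966), with 1436 of all probe sets at an unadjusted p under 0.05. With so few degrees of freedom, these p-values do not show that the line difference was constant.

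With each line centred on its own mean, the day profiles of the 5 genes could be compared among themselves. UGT78D2 and AT5MAT were the closest pair, with a root mean square difference of 0.24 log2 units over the 10 arrays, and DFR and AT4G14090 came next at 0.34. DFR and UGT78D2 were the farthest apart, at 0.59, and UGT78D2 and AT4G14090 followed at 0.57. These are descriptions over shared arrays.

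Of 51 other genes of the flavonoid and phenylpropanoid pathways and their regulators, 8 had a probe set of their own name. For the line difference 0 of the 8 were called, where 18 of all 22746 probe sets were. CHIL (AT5G05270), a chalcone isomerase-like protein that promotes flavonoid production early in the pathway, came closest to the late enzymes. It read 9.9, 7.0, 8.8, 11.4 and 9.1 in 35S:PAP1, against 6.2, 4.6, 4.8, 10.4 and 6.0 in the empty vector, a difference of 2.84 ± 0.39 (adjusted p = 0.0810). CHIL differed from the 5 enzymes in reading 2.6 higher on day 8 than on day 7 in 35S:PAP1 itself.

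None of the 3 measured flavonol glycosyltransferases was called for the line difference, where 18 of all 22746 probe sets were. Among them UGT78D1, a flavonol 3-O-rhamnosyltransferase and a relative of UGT78D2, gave a line difference of 0.44 ± 0.17 (adjusted p = 0.677), and AT1G06000, the flavonol 7-O-rhamnosyltransferase, 0.32 ± 0.21 (0.766). UGT78D3, a flavonol 3-O-arabinosyltransferase whose gene lies beside that of UGT78D2 with AT5G17040 between them, read 3.4, 3.2, 3.1, 5.4 and 3.3 in 35S:PAP1, against 3.2, 3.3, 3.3, 5.8 and 3.2 in the empty vector. Both lines were above the limit for background on day 8 alone, and the line difference was -0.08 ± 0.11 (adjusted p = 0.878). AT5G17040, named here for its position and after its values were seen, read 4.1 to 4.9 in 35S:PAP1, against 3.8 to 4.3 in the empty vector. Whether the UGT78D2 probes also bind transcripts of these neighbours was not tested.

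From day 1 to day 2, 2 of these 8 genes fell over both lines, where 5.5% of all probe sets did: UGT78D1 changed by -1.25 (adjusted p = 0.0309) and AT1G06000 by -2.2 (0.0109). From day 7 to day 8, 5 of the 8 rose, where 11.3% of all probe sets did: AT1G06000 by 4.35 ± 0.32 (adjusted p = 0.000318), CHIL by 4.1 ± 0.62 (0.00334), HYH, a bZIP factor of light signalling, by at least 3.3 ± 0.28 (0.000472), UGT78D3 by at least 2.4 ± 0.17 (0.00025) and UGT78D1 by 1.75 ± 0.27 (0.00345). All 5 fell from day 8 to day 12, where 9.44% of all probe sets did, with changes of -3.25 for AT1G06000, -3.35 for CHIL, -2.15 for HYH, -2.35 for UGT78D3 (its size a lower bound) and -1.95 for UGT78D1, and adjusted p of 0.000405 to 0.00898. Of the remaining 3, BAN, which encodes anthocyanidin reductase of the tannin branch, read 3.4 to 3.7 in 35S:PAP1, against 3.3 to 3.7 in the empty vector. The MYB inhibitor TRY gave a line difference of -0.18 (adjusted p = 0.764) and the bHLH gene ATMYC1 0.26 (adjusted p = 0.766). ATMYC1 was at or under the limit for background on every empty vector array and on days 2, 8 and 12 in 35S:PAP1. Its difference can therefore be understated. PAP1 itself has no probe set of its own name in the table used here and is not analysed.

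**Figure D5:**
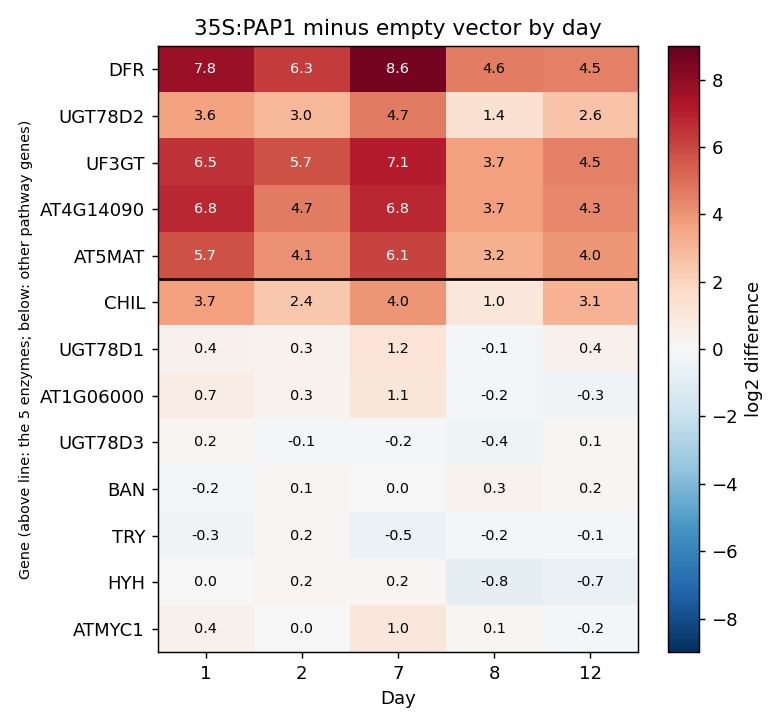
35S:PAP1 minus empty vector difference (log2 units, 1 array per line) by day (columns) for the 5 enzyme genes above the black line and the 8 other pathway genes with their own probe set below it. The 5 enzymes and CHIL are positive on all 5 days, from 1.0 (CHIL on day 8) to 8.6 (DFR on day 7), and the other 7 genes lie between -0.8 and 1.2.

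Among other genes with a probe set of their own name, those whose centred values over the 10 arrays came closest to the mean of the 5 enzymes were CHIL (root mean square difference of 1.41 log2 units), AT4G04750 (1.68), AT1G09500 (1.96), AT5G24760 (2.0) and AT5G59940 (2.04). The 5 enzymes themselves lay 0.284 (AT5MAT) to 1.00 (UGT78D2) from that mean. For UGT78D2 alone the closest were CHIL (0.775), AT4G04750 (0.79), AT5G24760 (1.16), AT1G06550 (1.18) and AT3G27570 (1.22). AT4G04750, a sugar transporter family gene, read 7.4, 5.9, 6.9, 7.8 and 6.7 in 35S:PAP1, against 5.4, 4.3, 4.5, 6.7 and 4.7 in the empty vector. Its lowest 35S:PAP1 value was on day 2 and its highest empty vector value on day 8, as for all 5 enzymes and CHIL.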

How the data were processed

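Per the labels' protocols, total RNA of pooled, frozen leaves was biotin-labelled for Affymetrix arrays. The authors deposited log2 values, 1 for each probe set, computed with RMA per the submitters' processing notes. This method subtracts background, gives all arrays the same distribution and combines a set's probes. No version of it is given in the sources used here. Values carry 1 decimal and lay between 2.4 and 14.2, with array medians of 5.5 to 5.7. Precision is limited by the number of arrays.

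Array controls (64 of 22810 probe sets) were removed. The probe table, GEO's platform annotation, names 1 gene for 13513 probe sets, of which 13436 matched the RefSeq gene table by Entrez identifier, and several for 503, of which 0 include any of the 5 enzymes. Per-sample columns not used numbered 0.

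Models were fitted in limma 3.58.1 (R 4.3.3) on all 22746 remaining probe sets, with Benjamini-Hochberg adjustment, a threshold of 0.05 and no fold limit, and the code was tested on simulated data. The line effect was blocked by day, which left 4 residual degrees of freedom. The labels give 1 array of each line per day, and after subtracting each line's mean the arrays of a day correlated with r of 0.525 (day 1), 0.774 (day 2), 0.488 (day 7), 0.843 (day 8) and 0.752 (day 12), so day was taken to pair them. No label names separate plants as replicates, so the p-values reflect only how these arrays vary, which may be in part technical. For the line effect this is how the line difference varied between days, so any change of it with regime widens the error. Likeness was the root mean square difference of values centred on their own mean. The 5 genes, the pathway list, the rule for named genes (the 5, any listed pathway gene, and the 5 genes most alike), the limit for background and the contrasts were chosen with earlier results of these data known. Figures were drawn with matplotlib 3.10.9.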

Additional observations from a re-analysis of the deposited data

Results flagged for a closer look

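Looked at were 48 sets of 5 values: the lines' values and their differences for the genes above, and RNA measures. For independent values of 1 condition, about 1 set in 20 has a value far apart by chance. These sets share arrays and span different regimes, so their count is not set against that share. In 6 of the 48 sets 1 value was far from the other 4. These were AT4G14090 in 35S:PAP1 on day 2 (9.7), CHIL in the empty vector on day 8 (10.4), UGT78D3 on day 8 in both lines (5.4 for 35S:PAP1, 5.8 for the empty vector), ATMYC1 in the empty vector on day 7 (3.2, under the limit for background), and the actin 5′ minus 3′ difference of the 35S:PAP1 array of day 2 (-2.5).

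From day 2 to day 7 the readings of 4 genes differed in sign between the lines. The 35S:PAP1 values start from the array with the actin difference of -2.5, and the empty vector values of all but DFR lie within the 5th to 95th percentile of all probe sets (-0.5 to 0.5). The change of DFR was 1.7 in 35S:PAP1, against -0.6 in the empty vector. For UGT78D2 it was 1.6 in 35S:PAP1, against -0.1 in the empty vector, for UF3GT 1.1 against -0.3 and for AT4G14090 1.8 against -0.3, the lines in the same order. With 1 array per line and day the difference was not tested.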

How the results depend on the processing

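For the line difference, 4 of the 5 genes were called as reported, and the estimates kept their sign under all alternatives run. The number was 5 with each array centred on its median, with dim probe sets filtered out and with an intensity trend. It was 2 without the day block, 0 when 35S:PAP1 lost days 2 and 7, and 0 to 3 with 1 day left out. The cause was not tested. Over all probe sets the count was 18, against 32 with the filter and 34 with the trend. Without the day block it was 8, when 35S:PAP1 lost days 2 and 7 it was 0, and with 1 day left out 0 to 13. For day 8 minus day 7, 1 gene was called, against 2 with centring, the filter or the trend and 0 to 2 with 1 array left out. For day 12 minus day 8, 0 were called, against 1 with centring, the filter or the trend and 0 to 1 with 1 array left out.

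With 1 array left out, signs of uncalled changes turned in these cases, and the cause was not tested. For 35S:PAP1, cool bright minus warm dim, the ranges were -0.3 to 1.4 (DFR), -0.15 to 1.45 (UGT78D2), -0.35 to 0.75 (UF3GT) and -0.1 to 1.9 (AT5MAT). For warm dim minus mild bright in 35S:PAP1 they were -1.5 to 0.1 (UGT78D2) and -1.9 to 0.1 (AT5MAT). For day 7 minus day 2 they were -0.85 to 1.95 (DFR), -0.275 to 1.775 (UGT78D2), -0.6 to 1.4 (UF3GT) and -0.2125 to 1.7125 (AT4G14090). For day 12 minus day 8 they were -2.1125 to 0.2125 (DFR), -2.225 to 0.025 (UF3GT) and -1.575 to 0.375 (AT4G14090). For the change of the line difference from mild bright to warm dim they were -1.5 to 0.8 (DFR), -0.8 to 0.6 (UF3GT), -1.6 to 0.4 (AT5MAT) and -0.6 to 1.1 (UGT78D2). With the highest PYK10 reading (5.1) as the limit for background, 11 of the 50 values of the 5 genes would lie at or under it.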

Other observations

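With each line centred on its own mean, so that the line difference no longer counts, 0 of the 5 genes most like the mean of the enzymes were the same as before. The closest was AT1G79150 (root mean square difference of 0.446 log2 units), which read 6.2, 4.8, 5.7, 7.3 and 5.7 in 35S:PAP1, against 5.7, 4.8, 4.7, 7.8 and 5.7 in the empty vector, followed by AT3G15650 (0.494), AT3G10530 (0.505), AT5G11240 (0.51) and AT1G57590 (0.515). For UGT78D2 alone AT1G79150 (0.33) and AT3G10530 (0.371) came first as well, followed by the beta-expansin EXPB3 (0.379), AT3G22660 (0.422) and YAO (0.428).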
